A study of Mus musculus with 16 samples.

Results

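Pancreatic islets of NZO and NOD mice, strains known for diabetes, were compared with islets of 129, AJ and B6 mice by ATAC-seq, in which a transposase inserts sequencing adapters into accessible chromatin. Of the 16 samples of the series, 10 were used: 4 of NZO_HlLtJ (NZO) and NOD_ShiLtJ (NOD) against 6 of 129S1_SvImJ (129), A_J (AJ) and C57BL/6J (B6), with 1 female and 1 male sample of each of the 5 strains. The samples were selected by their strain labels. All mice were untreated as far as the labels state, each sample was prepared from 50 islets, and the age, diet and blood glucose of the mice are not given in the sources used here. Whether any NZO or NOD animal was diabetic at collection is therefore not known. Both samples of a strain share an inbred genome, so strains, not samples, were the units of the comparison between the 2 sides.

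NZO mice become obese and insulin resistant, and their males in particular develop a form of type 2 diabetes when beta cells fail. NOD mice are a model of autoimmune diabetes, in which leukocytes infiltrate the islets and T cells destroy the insulin-producing beta cells, more often in females. The strains thus reach high blood glucose by different routes, and 129, AJ and B6 mice do not develop either disease spontaneously. An ATAC-seq peak marks a promoter, enhancer or other site at which nucleosomes are displaced, and DNA sequence differences between inbred strains can create or remove such a site. All reads were aligned to the B6 reference genome (GRCm38, mm10), whichever strain they came from.

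Overlapping peaks of the 10 sample lists on chromosomes 1 to 19 were joined, which gave 240837 regions, 200 bases wide in the median. A peak was listed in all 10 samples at 45626 of them, with a median width of 875 bases, and differences in signal were tested at these. The deposited summit signal of each peak was compared as log2(signal + 1) after subtraction of each sample's median over the 45626 regions. Levels are given below as scaled signal, the summit signal divided by that median, so that 1 is the typical shared region of a sample. A difference is always a difference of means on the log2 scale, and a region was called at a Benjamini-Hochberg adjusted p under 0.05 over all regions tested.

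The sequences below are the reference sequence (RefSeq GRCm38, plus strand, 5′ to 3′) of the 200 bases around the summit of 6 regions on which the results turn. The first 3 separated NZO and NOD from the other strains, and the last 3 separated NZO or NOD alone. Capitals mark a stretch as long as 1 period of the tandem repeat in the Srbd1, Sos1 and Ank3 windows (in Sos1 this stretch itself holds copies of a shorter unit), the homeodomain motif TAATTA in the Gm45296 window and the AP-1 motif TGANTCA in the Gm5444 window. The Zfp831 window, shown as an intronic region with no such feature, held none of the 10 motifs searched and no tandem repeat.
Region near Srbd1, lower in NZO and NOD (chr17:86150975-86151174): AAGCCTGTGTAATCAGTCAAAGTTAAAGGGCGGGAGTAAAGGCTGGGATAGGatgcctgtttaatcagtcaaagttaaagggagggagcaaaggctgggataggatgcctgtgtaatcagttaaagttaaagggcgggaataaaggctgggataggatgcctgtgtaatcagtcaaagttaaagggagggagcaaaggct
Region near Gm45296, lower in NZO and NOD (chr8:100281279-100281478): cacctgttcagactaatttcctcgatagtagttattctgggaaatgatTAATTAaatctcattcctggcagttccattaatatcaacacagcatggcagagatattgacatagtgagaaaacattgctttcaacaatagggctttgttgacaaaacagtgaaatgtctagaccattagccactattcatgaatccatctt
Zfp831 intron, higher in NZO and NOD (chr2:174675802-174676001): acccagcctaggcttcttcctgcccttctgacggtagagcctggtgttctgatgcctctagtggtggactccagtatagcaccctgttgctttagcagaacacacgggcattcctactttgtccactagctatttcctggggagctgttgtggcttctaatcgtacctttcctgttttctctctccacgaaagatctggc
Gm5444 intron, higher in NZO alone (chr13:4778458-4778657): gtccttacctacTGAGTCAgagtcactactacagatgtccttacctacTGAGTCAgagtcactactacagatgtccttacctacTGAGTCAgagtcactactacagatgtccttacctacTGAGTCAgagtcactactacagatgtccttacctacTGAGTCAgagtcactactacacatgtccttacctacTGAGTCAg
Sos1 intron, lower in NZO alone (chr17:80468495-80468694): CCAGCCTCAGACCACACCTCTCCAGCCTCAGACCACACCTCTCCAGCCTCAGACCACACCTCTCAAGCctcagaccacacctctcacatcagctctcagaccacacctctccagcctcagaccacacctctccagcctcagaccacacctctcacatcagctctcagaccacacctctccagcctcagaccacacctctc
Ank3 intron, lower in NOD alone (chr10:69910640-69910839): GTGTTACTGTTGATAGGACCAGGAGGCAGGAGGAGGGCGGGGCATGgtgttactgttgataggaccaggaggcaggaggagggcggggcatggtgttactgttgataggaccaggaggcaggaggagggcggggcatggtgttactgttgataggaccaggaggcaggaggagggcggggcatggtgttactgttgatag

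The 10 lists held 77887 to 141307 peaks, and both extremes were male samples, of AJ and of NZO. The NZO lists held 106539 and 141307 peaks, the NOD lists 89618 and 94449, and the 6 others 77887 to 117672. The means of the strains were 123923 ± 24585 for NZO and 92033.5 ± 3416 for NOD (SD, n = 2 samples each), and the mean of NZO and NOD was 10428.8 peaks above that of the others. Without the NZO male this excess was 1736.75, and the list of the NZO female lay within the range of the 6 others. The exact permutation test of the excess over all samples, over the 10 ways to name 2 of 5 strains, gave p = 0.6, two-sided, and the smallest p this design allows is 0.1. The NZO male stood apart from the other libraries: its mean Pearson r with the 9 others over the regions tested was 0.767, against 0.819 to 0.886 for those. Its r with the NZO female was 0.846, against 0.903 to 0.959 for the female and male of each other strain. Its promoter regions had a median log2 signal 1.31 above that of its other regions, a gap that was 0.51 to 1.24 in the rest. Sequencing depth per sample is not in the lists, and was not known here.

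The islet label held in every sample. All 10 beta cell markers examined, among them Ins1, Ins2, Pdx1 and Mafa, had a promoter peak in all 10 samples, with a summed scaled signal of 17.7 to 22.7 in NZO and NOD and 18.9 to 26.3 in the others. Of 5 autosomal alpha cell markers, 3 had a peak in all 10 samples, with sums of 3.21 to 6.47 and 3.16 to 6.42. Neither Sst nor Ppy, the hormone genes of delta and PP cells, had a promoter peak in any sample. Of 14 acinar markers, 6 had no peak in any sample, and the sums were 2.00 to 3.75 against 1.92 to 2.88. Of 18 leukocyte markers, 8 had no promoter peak in any of the 10 samples, among them the T cell genes Cd3e, Cd3g, Cd4 and Cd8a and the B cell genes Cd79a, Cd79b and Ms4a1. The NZO male had peaks at 10 leukocyte marker promoters with a sum of 6.31, whereas the other 9 samples had peaks at 0 to 4 with sums of 0 to 1.74. It also had the highest duct marker sum, 5.90, against 1.55 to 4.21 in the rest, while the ranges for endothelial markers (6.83 to 9.28 against 5.72 to 8.53) and fibroblast markers (0.92 to 2.08 against 0.68 to 1.77) overlapped between the sides, and Tie1, Plvap, Emcn and Pdgfrb had no peak in any sample. The part of these markers in the differences below was not tested. In such bulk samples, fewer cells of a type and less accessible chromatin per cell cannot be told apart.

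Did the diabetes-prone strains share an islet chromatin pattern? NZO and NOD were not each other's closest strains. The correlation of their strain means across the 45626 regions, which are not independent replicates, was r = 0.859, and NOD was closest to AJ (r = 0.937) while NZO was closest to 129 (r = 0.895). The lowest r of all 10 pairs, 0.836, was between NZO and AJ. The mean r within sides was 0.0109 below that between sides, at an exact one-sided permutation p of 0.6 over the 10 assignments of strains, with 0.1 as the smallest possible. Without the NZO female or without the 129 female this difference turned to 0.0111 and 0.00414, so its sign rested on single libraries. The overlap of the bases covered by peaks, as a Jaccard index, gave 0.475 for NZO and NOD, 0.572 for NOD and AJ, and 0.452 for NZO and AJ. By this measure NZO was closest to B6 (0.4935) and not to 129 (0.4765), so its closest strain depended on the measure.

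A difference shared by NZO and NOD was called at 1 of 45626 regions (0.00219% called), by limma on the 5 strain means with 2 strains against 3. The unadjusted p was under 0.05 at 903 regions, a smaller share of those tested than the threshold itself. With the same contrast tested against the spread between the female and male of a strain, which asks about these 10 samples rather than about strains, limma called 73 regions, 36 higher and 37 lower. The differences were centred near 0: the median difference of NZO and NOD from the others was -0.02, that of NZO -0.07 and that of NOD 0.03.

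The called region lay between genes on chromosome 17, chr17:86150835-86151405, 5660 bases from a start site of Srbd1, which encodes an RNA-binding protein. Its scaled signal was 1.39 in the NZO female, 0.706 in the NZO male, 0.456 in the NOD female and 0.387 in the NOD male. In the other samples it was 8.83 and 7.09 in 129, 5.95 and 7.14 in AJ, and 7.97 and 5.44 in B6. The 2 sides did not overlap, with means of 0.736 ± 0.46 (SD, n = 4) and 7.07 ± 1.25 (SD, n = 6), and the NOD samples were the lowest. The difference was -3.40 ± 0.38 (SE) at a limma adjusted p of 0.0173. Each strain was also called against the 3 others in the fit of strain and sex, NZO at -2.79 ± 0.26 (limma adjusted p = 0.012) and NOD at -4.01 ± 0.26 (limma adjusted p = 0.000987), and NZO minus NOD was 1.22 ± 0.32 (limma adjusted p = 0.109). The window around the summit is a tandem repeat with a period of 52 bases, of which 91.2% of bases equal the base 1 period on. How many units the NZO and NOD genomes hold there was not measured. The adjusted p of the shared difference rose above 0.05 without the NZO female (limma adjusted p = 0.0581), without the NZO male (0.0718), without the 129 male (0.101) and without strain 129 (0.480), while the difference stayed between -3.64 and -3.16 in these.

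Values of all 4 NZO and NOD samples lay above all 6 others at 191 regions (0.419% of those tested) and below them at 319 (0.699%), so 37.5% of the separated regions were higher in NZO and NOD. This split depended on the centring: without it the median difference over all regions was 0.11 in place of -0.02, and 447 regions lay above and 45 below, or 90.9% above. Among the 191 regions the differences of NZO and NOD from the others ranged from 0.15 to 1.91, and 44 exceeded 1. Among the 319 they ranged in size from 0.19 to 3.40, and 66 exceeded 1. Without the NZO male, the constraint is looser and the counts were 403 and 528.

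In these regions, which the rule chose for both strains lying outside the range of the 6, the difference from the others was larger in NZO at 110 of the 191 higher regions and in NOD at 81, with medians of 0.70 and 0.63. Among the 319 lower regions it was larger in NZO at 195 and in NOD at 124, with medians of -0.65 and -0.54. The NOD contrast called 13 of the higher and 24 of the lower regions, and the NZO contrast 2 and 9. These contrasts share the 6 samples of 129, AJ and B6. Promoters, here regions within 3 kb of a start site, made up 39.3% of the higher and 32.0% of the lower regions against 39.1% of all tested.

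The named regions with higher signal in NZO and NOD included the promoters of the protein-coding genes Trim6, Tmed6 and Slitrk5. Trim6, an E3 ubiquitin ligase of the tripartite motif family, had a promoter region at chr7:104218400-104219695 with scaled signals of 1.37 and 2.47 in NZO and 1.76 and 2.13 in NOD. The others lay at 0.358 and 0.734 in 129, 0.400 and 0.510 in AJ, and 0.641 and 0.410 in B6. The lowest NZO or NOD value was thus above the highest of the others, and the difference was 1.91 ± 0.31 (SE; limma adjusted p = 0.27 over strain means). NOD against the others gave 1.94 ± 0.31 (limma adjusted p = 0.0388) and NZO 1.87 ± 0.31 (limma adjusted p = 0.0704). At Tmed6, a member of the family of cargo receptors of the early secretory pathway, the promoter at chr8:107065400-107066399 had 0.697 and 1.47 in NZO, 0.709 and 0.680 in NOD, and 0.231 to 0.422 in the others. There the NZO male lay far above the other 3 samples of its side, and the difference was 1.39 ± 0.34.

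An intron of Zfp831, a zinc-finger gene, held a region at chr2:174675652-174676143 with 0.724 and 1.12 in NZO, 1.33 and 1.71 in NOD and 0.256 to 0.471 in the others. NOD was the higher strain in this region, at 2.17 ± 0.22 (limma adjusted p = 0.00519), against 1.43 ± 0.22 for NZO (limma adjusted p = 0.0639), but the difference between them was not called (limma adjusted p = 0.172). In an intron of Phactr2, a phosphatase and actin regulator, the region at chr10:13446689-13447531 had 1.38 and 3.29 in NZO and 2.23 and 2.41 in NOD, against 0.513 to 1.20 in the others. The other 4 named regions had differences of 1.33 to 1.66. They lay at the predicted genes Gm3123 and Gm45602, between genes 36377 bases from a start site of Gm17915, and in the promoter of Slitrk5, 1748 bases from a start site of this transmembrane gene of neurons. Gm3123 lies within a multicopy area of chromosome 14 and its value is uncertain, as given below.

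Among regions with lower signal in NZO and NOD, the promoter of Kyat3, a kynurenine aminotransferase, was one of those named. Its region at chr3:142721126-142722508 had scaled signals of 1.75 and 1.04 in NZO, 1.41 and 1.53 in NOD, 5.15 and 5.80 in 129, 5.68 and 4.57 in AJ, and 4.92 and 3.94 in B6. The difference was -1.81 ± 0.32 (limma adjusted p = 0.383 over strain means), and both strains were called against the others, NZO at -1.87 ± 0.25 (limma adjusted p = 0.0389) and NOD at -1.75 ± 0.25 (limma adjusted p = 0.0224). Mfsd6, a transporter-like membrane protein, had a promoter region at chr1:52711815-52713681 with 1.45 and 0.549 in NZO and 0.861 and 0.867 in NOD, against 2.91 to 4.80 in the others. The highest value of NZO and NOD, that of the NZO female, lay below the lowest of the others, and the difference was -2.01 ± 0.31 (limma adjusted p = 0.27 over strain means).

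The region 6357 bases from Arc, an immediate-early gene best known from neurons, showed the smallest SD within NZO and NOD of the 16 named regions. Its 4 values at chr15:74678927-74680037 lay between 0.453 and 0.513, and the 6 others between 1.26 and 3.05. The region at chr8:100281048-100281753, which is 157005 bases from the nearest gene, Gm45296, had 0.275 to 0.395 in NZO and NOD and 1.02 to 3.72 in the others, with the highest values in B6. Its differences were -2.44 ± 0.25 both for NZO (limma adjusted p = 0.0167) and for NOD (limma adjusted p = 0.0055). The remaining 3 named regions lay 4868 bases from A430010J10Rik, at Gm5456 and in an intron of Ldlrad4, a regulator of TGF-beta signalling, with differences of -1.88 to -1.63. The region near A430010J10Rik was called in NZO at -1.61 ± 0.22 (limma adjusted p = 0.0402) and in NOD at -2.08 ± 0.22 (limma adjusted p = 0.00551). Gm5456 lies within a multicopy area of chromosome 14, and its value is uncertain. The plot of scaled signal at these 16 regions shows each sample.

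**Figure D1:**
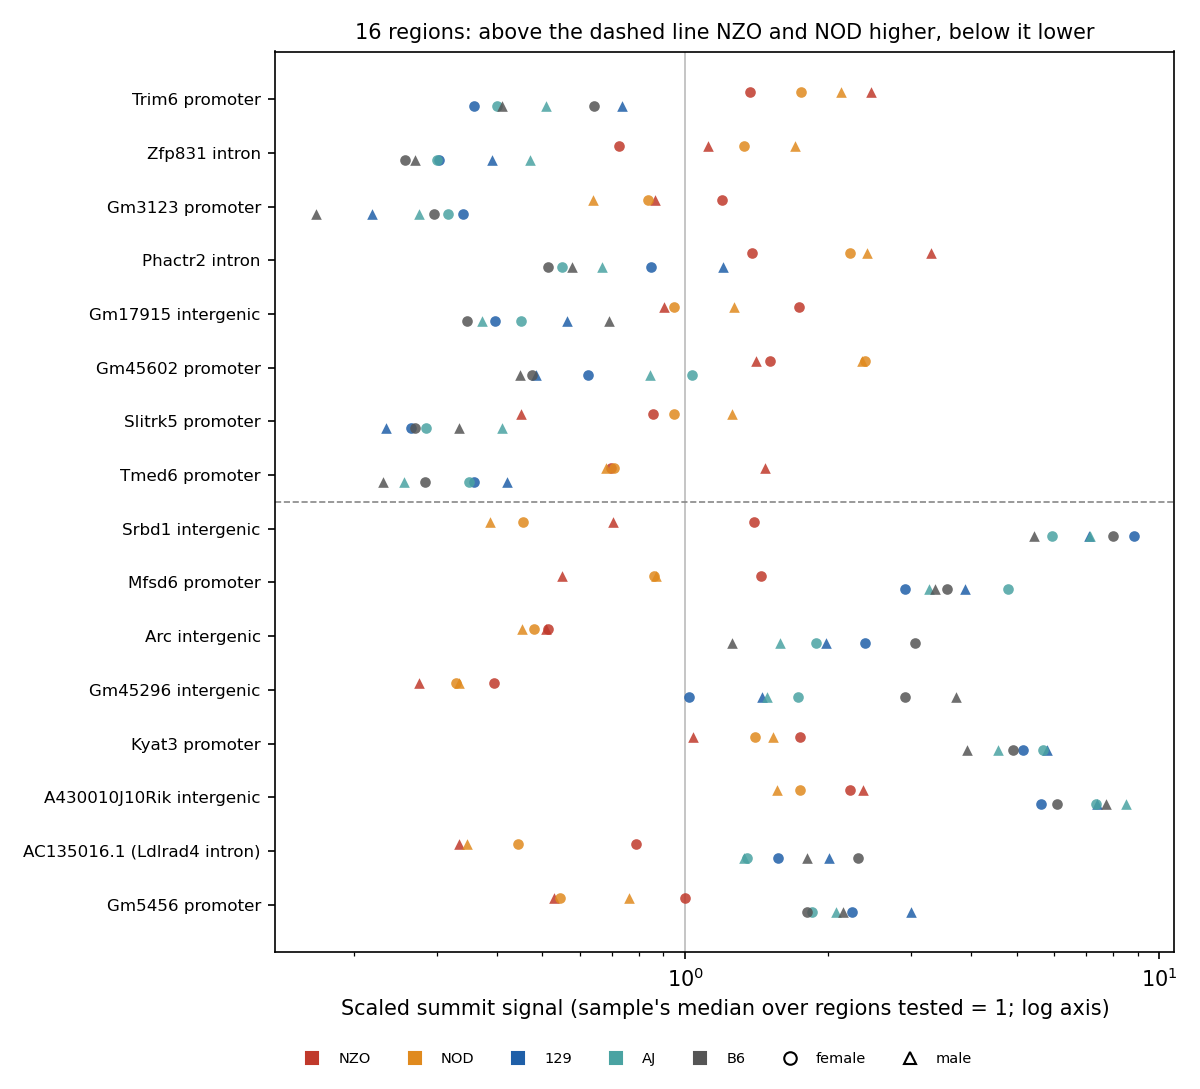
Scaled summit signal on a log axis, 1 point per sample, at the 16 named regions that separated NZO (red) and NOD (orange) from 129, AJ and B6 (circles female, triangles male; grey line at 1, the sample's median). Above the dashed line NZO and NOD were higher, as at Trim6, and below it lower, as at the region near Srbd1, where they lay at 0.387 to 1.39 against 5.44 to 8.83.

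Separated regions lay near each other more often than other regions did near them. Another region above the 6 lay within 100 kb of 23 of the 191 higher regions (12.0%), whereas 2.67% of the other regions had such a neighbour. For the lower regions this was 49 of 319 (15.4%) against 4.71%. No test was made of these shares, since neighbouring regions of an inbred genome are not independent. Of 1753 windows of 1 Mb with at least 10 regions tested, 369 held a separated region and 24 held at least 3.

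The window with the most was on chromosome 19 from 10 to 11 Mb, where 6 of 66 regions lay above in NZO and NOD and 0 below. Of these, 3 belonged to Syt7, which encodes a calcium sensor of vesicle fusion that takes part in insulin secretion. The Syt7 promoter (chr19:10387025-10389890) had 2.80 and 2.84 in NZO, 2.89 and 2.88 in NOD, 2.06 and 1.94 in 129, 2.33 and 2.22 in AJ, and 1.69 and 1.05 in B6. The NZO and NOD values were almost level there, and the difference was 0.64 ± 0.34 (limma adjusted p = 1 over strain means). The other 2 Syt7 regions, 1 at the promoter of the noncoding gene Gm26859 within it and 1 in an intron, differed by 0.59 ± 0.34 and 0.83 ± 0.35. The same window held the promoter of Myrf, an intron of Dagla, a lipase that makes an endocannabinoid, and an exon of the prostaglandin receptor gene Ptgdr2, with differences of 0.74, 0.68 and 0.99. In all 3, AJ was the nearest of the other strains. At Myrf AJ had 2.23 and 2.33, just under the lowest NZO or NOD value of 2.35, while 129 and B6 had 1.01 to 1.47. At Dagla AJ had 2.07 and 1.86 against 2.15, and 129 and B6 had 1.08 to 1.44.

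On chromosome 2 from 174 to 175 Mb, 5 of 21 regions lay above, at Zfp831, in 2 introns of the SNARE gene Stx16 and at the promoters of Atp5e, a subunit of the mitochondrial ATP synthase, and Prelid3b. The Atp5e promoter had 3.79 and 7.08 in NZO and 9.54 and 9.07 in NOD, against 2.10 to 3.60 in the others, so that the NZO female was just outside their range. Its difference was 1.23 ± 0.36, with NOD at 1.66 ± 0.28 (limma adjusted p = 0.0481) and NZO at 0.81 ± 0.28 (limma adjusted p = 0.175). At all 5 regions the difference was larger in NOD than in NZO. NOD minus the others was called higher at 6 of the 21 regions of this window. The window borders the stretch of chromosome 2 from 175 Mb, given below, in which NOD was high. On chromosome 7 from 35 to 36 Mb, 4 of 44 regions lay below (at Gpatch1, Tdrd12, Dpy19l3 and Zfp507, -1.14 to -0.30) and 1 above (in Rhpn2). On chromosome 1 from 167 to 168 Mb, 4 of 36 lay below, at Fam78b, in and near Uck2 and in Lmx1a, with differences of -0.66 to -0.38. The fifth window, chromosome 14 from 7 to 8 Mb, had 5 of 29 below, all within a multicopy gene family.

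Peaks listed in all samples of 1 side and in none of the other were few. Of the 240837 merged regions, 182 (0.0756%) had a peak in all 4 NZO and NOD samples and in none of the 6 others, and 64 (0.0266%) had the reverse. The missing peaks of a list are regions under its threshold, not regions shown to be closed. The 182 were weak, with a median scaled signal of 0.339 in NZO and 0.323 in NOD, and the signal was larger in NZO at 101 of them. With the same number of peaks taken from each list, the strongest 77887, the counts were 104 and 82. Without the NZO male the counts were 280 and 76.

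Of the 182 regions, 76 lay on chromosome 14 between 41 and 45 Mb, an area that held 1144 of all 240837 merged regions. This area carries many predicted genes with near-identical copies, and values there are uncertain because reads of 1 copy can be placed at another. Without it, an alternative chosen after the data were seen, 106 and 59 regions remained on the 2 sides. Outside this area the strongest region with peaks only in NZO and NOD was at chr6:68373204-68373964, 15107 bases from Gm5310, with scaled signals of 0.868 and 0.529 in NZO and 1.23 and 1.71 in NOD. The next were at chr15:75721451-75721817, 8863 bases from Rhpn1, with a mean of 0.988 ± 0.667 (SD, n = 4), and at chr5:25668447-25668583 near Gm10062, with 0.880 ± 0.225. Within it, Gm3573 and AC133517.1 had means of 0.873 ± 0.186 and 0.884 ± 0.381.

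The strongest region with peaks only in 129, AJ and B6 lay at chr6:133205671-133206605, 9031 bases from Gm25019, with 1.30 and 1.34 in 129, 1.88 and 2.41 in AJ and 1.05 and 1.77 in B6. No NZO or NOD list held a peak there. The others named were the promoters of Gm9728 (mean 1.15 ± 0.412, SD, n = 6) and Gm49080 (1.32 ± 0.304), an exon of Ear1 (1.15 ± 0.461), a gene of the eosinophil-associated ribonuclease family, and a region near AC154343.2 (0.988 ± 0.168). Gm49080 and Ear1 lie in the same area of chromosome 14 as the 76 regions above.

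Each strain lay outside the range of the others at more regions by itself than together with the other strain, where the constraint falls on 2 samples rather than 4. Both NZO values lay above all 6, with the NOD pair outside the range on neither side, at 1456 regions (3.19%) and below at 3532 (7.74%). For NOD alone, counted likewise, there were 2043 above (4.48%) and 1532 below (3.36%). The 2 strains lay on opposite sides of the 6 at 99 regions with NZO above and NOD below (0.217%) and at 355 with NZO below and NOD above (0.778%). Single-strain peaks were likewise more frequent than shared ones: 3304 regions (1.37%) had a peak in both NZO samples only and 1133 (0.47%) in both NOD samples only. Peaks in all 6 others and both NOD samples were missing from both NZO lists at 380 regions (0.158%), and those in all 6 and both NZO samples from both NOD lists at 354 (0.147%).

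**Figure D2:**
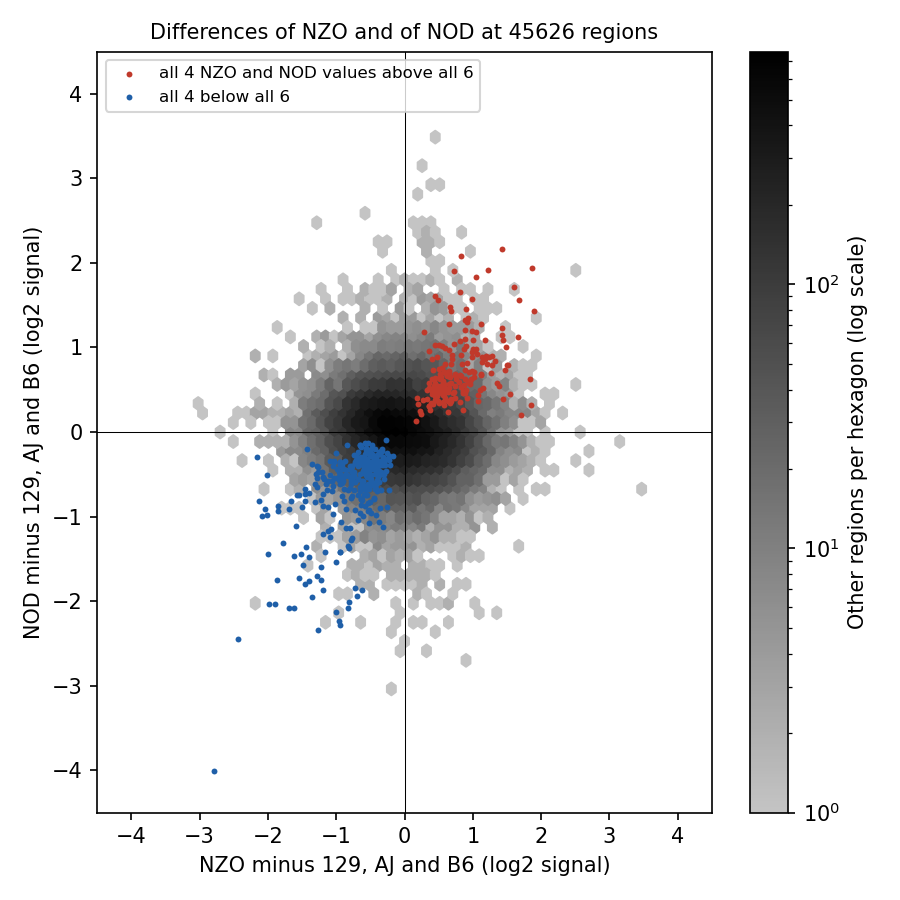
Difference of NZO (x axis) and of NOD (y axis) from 129, AJ and B6, in log2 summit signal, at the 45626 regions tested. Red points are the 191 regions with all 4 values above the 6 others, blue points the 319 below, and grey hexagons count the rest; both axes share the same 6 samples, and the lowest point at left is the region near Srbd1 at -2.79 and -4.01.

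By limma in the fit of strain and sex, NZO minus the others was called at 48 regions (0.105%), 21 higher and 27 lower, and NOD minus the others at 179 (0.392%), 87 higher and 92 lower. NZO minus NOD was called at 227 regions (0.498%), 99 higher in NZO and 128 lower. The error in this fit is the spread between the female and the male of each strain, with 4 residual degrees of freedom, so these counts concern the 10 samples and depended on single libraries: without the NZO male the 3 counts were 0, 465 and 105, and without the NZO female, 12168, 465 and 12263. Without the NOD female or the NOD male, NOD rested on 1 library. No call then remained for NOD or for NZO minus NOD, and few for NZO. In these fits the lone library of a strain is assumed to vary like the other strains. Without any 1 of the 6 libraries of 129, AJ and B6 the counts were 3 to 8 for NZO, 63 to 81 for NOD and 87 to 134 for NZO minus NOD. The unadjusted p was under 0.05 at 9412, 3988 and 9916 regions with all 10 samples.

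Of the 21 regions called higher in NZO, 11 were also called between NZO and NOD, and both NOD samples lay above the 6 at 2 and below at 1. Among the 27 called lower in NZO, 17 were called between NZO and NOD, and NOD lay below the 6 at 9. For the 87 and 92 regions called in NOD, 43 and 41 were called between the strains. The regions called in both strains against the others numbered 1 in the higher and 4 in the lower direction. The higher one was Gm3123 (limma adjusted p = 0.028 for NZO and 0.0319 for NOD), within a multicopy area of chromosome 14 where values are uncertain. The lower ones were the regions near Srbd1, Gm45296 and A430010J10Rik and the Kyat3 promoter.

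The largest named difference of NZO was in an intron of the noncoding gene Gm5444 (chr13:4778308-4778725), where scaled signal was 15.6 and 15.2 in NZO, 0.873 and 0.853 in NOD and 0.719 to 2.85 in the others. NZO minus the others was 3.45 ± 0.30 (limma adjusted p = 0.00878) and NZO minus NOD 4.13 ± 0.37 (limma adjusted p = 0.00475). Its window is a tandem repeat of 36 bases with a self-match of 99.4%, and the sequence shown above holds 6 matches to the AP-1 motif. The Gm43743 promoter (chr3:94334562-94334692) had 8.62 and 11.2 in NZO against 0.844 to 1.67 in all 8 other samples, and the region near Gm11222 (chr4:69806150-69807070) 2.22 and 1.35 against 0.127 to 0.358. In both, NZO was clear of NOD and of the rest.

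The 3 named regions that were low in NZO alone lay near AC102354.1, near Gm15901 and in an intron of Sos1, an activator of Ras downstream of receptor tyrosine kinases. At chr17:75639971-75642641, near AC102354.1, NZO had 0.829 and 0.392, NOD 6.18 and 6.13, and the others 2.58 to 6.24, a difference of -3.01 ± 0.30 (limma adjusted p = 0.0148). At chr12:44848523-44852257, near Gm15901, NZO had 0.158 and 0.137 against 0.923 to 1.96 in the rest, at -3.01 ± 0.23 (limma adjusted p = 0.00454). The Sos1 intron (chr17:80468400-80468957) had 0.303 and 0.686 in NZO, 2.9 and 3.11 in NOD and 1.53 to 3.82 in the others, at -2.50 ± 0.31 (limma adjusted p = 0.0305). In all 3, both NOD values lay within the range of 129, AJ and B6. The Sos1 window is a tandem repeat with a period of 68 bases and a self-match of 87.1%.

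In NOD the 3 named regions with higher signal all lay on chromosome 2 between 177 and 178 Mb. At Gm14410 (chr2:177201025-177214923) the scaled signal was 71.4 and 72.4 in NOD, 7.09 and 10.5 in NZO and 4.75 to 7.71 in the others, a difference of 3.47 ± 0.22 (limma adjusted p = 0.000987). At Gm14403 (chr2:177474034-177555783) NOD had 45.8 and 46.3 against 4.13 to 6.92 in the other 8 samples, at 3.19 ± 0.21 (limma adjusted p = 0.000987). Gm14326 (chr2:177955910-177957733) had 37.1 and 37.8 in NOD, 5.20 and 9.14 in NZO and 3.53 to 5.29 in the others, at 2.98 ± 0.24 (limma adjusted p = 0.00267). These are predicted genes of a zinc-finger cluster with near-identical copies, and their values are uncertain for that reason.

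The whole stretch from 175 to 178 Mb of chromosome 2 behaved alike. Of its 28 regions tested, 27 had both NOD values above all 6 others, and 24 of the 87 regions called higher in NOD lay there. The median scaled signal was 10.0 in both NOD samples, 2.63 and 4.13 in NZO and 1.95 to 3.12 in the others. The median difference was 2.29 for NOD, with a range of -0.29 to 3.47, and 0.34 for NZO. An area of chromosome 14 from 3 to 8 Mb went the other way: of 58 regions, 25 had both NOD values below the 6 and 8 had both above, with a median difference of -0.69 for NOD and -0.40 for NZO, and it held 13 of the 92 regions called lower in NOD and 10 of the 319 with all 4 values below. The 129 samples had by far the highest medians there, 3.14 and 3.01, against 0.848 to 1.71 in the rest. These areas were defined after the data were seen. How many copies of these genes the NOD, NZO or 129 genome holds was not measured.

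Outside the multicopy areas NOD was low by itself at an intron of Ank3, which encodes ankyrin-G, a linker of membrane proteins to the cytoskeleton. The region at chr10:69910324-69911071 had 1.00 and 0.880 in NOD, 10.3 and 12.4 in NZO, 11.8 and 10.0 in 129, 4.42 and 4.82 in AJ and 5.19 and 3.83 in B6. NZO and 129 thus formed a high pair, AJ and B6 an intermediate and NOD a low one, with NOD minus the others at -2.68 ± 0.23 (limma adjusted p = 0.00338) and NZO minus the others at 0.89 (limma adjusted p = 0.121). Its window is a perfect tandem repeat of 46 bases in the reference (self-match 100%). The Tmem243 promoter (chr5:9111626-9113399) had 0.532 and 0.453 in NOD against 2.27 to 3.75 in the other 8 samples, at -2.58 ± 0.22 (limma adjusted p = 0.00303), and the region near Gm48085 (chr10:99511616-99512379) 0.228 and 0.387 against 1.53 to 3.23, at -3.01 ± 0.26 (limma adjusted p = 0.00338).

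Tandem repeats, defined after the data were seen as windows in which at least 80% of bases recur at a period of 5 to 100 bases, were found at 128 of 45626 regions (0.281%). They made up 2 of the 21 regions called higher in NZO, 2 of the 27 called lower in NZO, 2 of the 92 called lower in NOD and 0 of the 87 called higher in NOD. Among the shared differences they were 1 of 319 lower regions, the one near Srbd1, and 0 of 191 higher ones. Repeats were thus present among the largest named differences and rare in the separated sets.

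**Figure D3:**
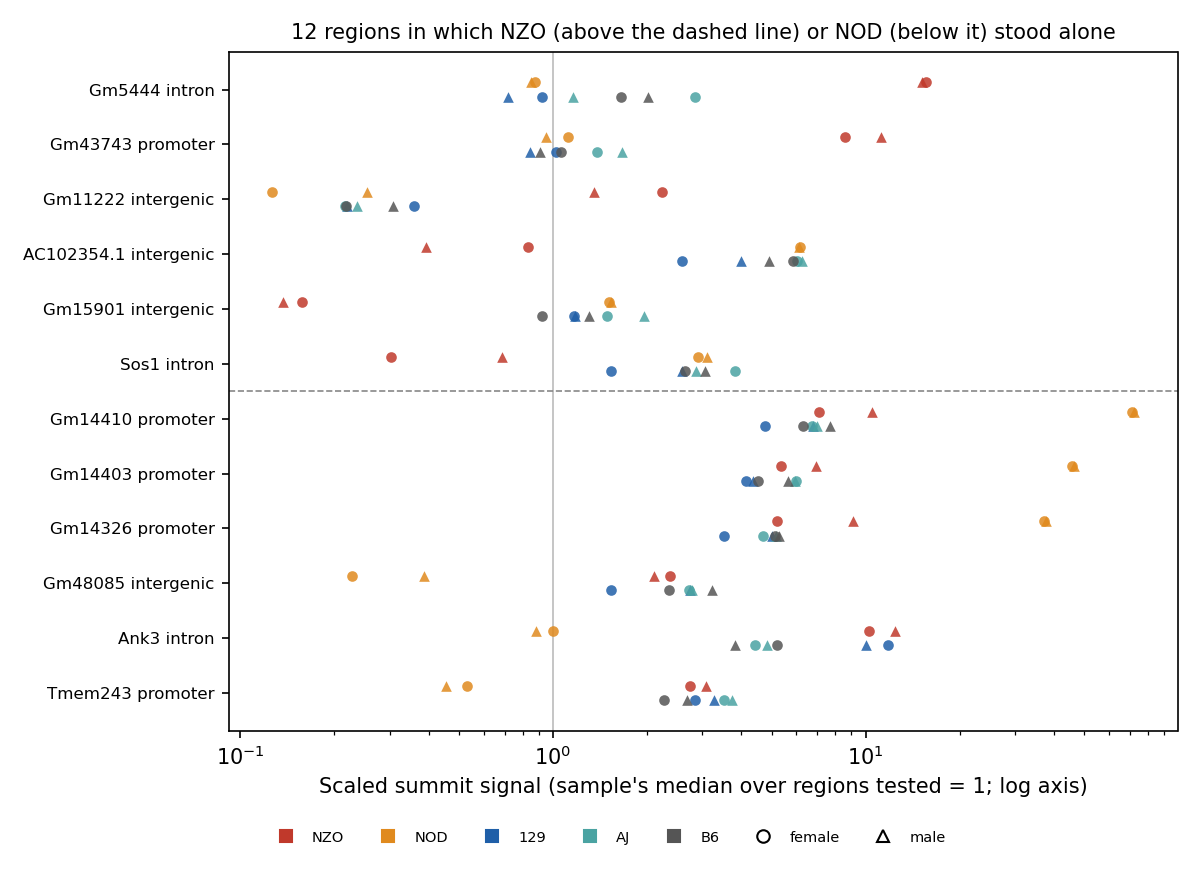
Scaled summit signal on a log axis, 1 point per sample, at the 12 named regions at which NZO (above the dashed line) or NOD (below it) differed from the 3 other strains and from each other (circles female, triangles male). NZO lay at 15.2 to 15.6 in the Gm5444 intron, and NOD at 71.4 to 72.4 at Gm14410, far from all other samples.

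Genes of diabetes biology were examined through their promoter regions, in 10 lists that were chosen with earlier results of these data known. No promoter region of any list was called by limma in the shared, the NZO or the NOD contrast. The unadjusted p of the shared contrast was under 0.05 for Men1 and Cd274 alone, and the smallest limma adjusted p was 0.118 for NZO, at Pcsk1, and 0.215 for NOD, at Sorcs1. The promoter of Syt7, described above, was the only one with all 4 values on 1 side of the 6. Beside each list's median, the median over all regions tested was -0.02 for both strains together, -0.07 for NZO and 0.03 for NOD. The difference of both strains together was positive at 21161 of all regions and negative at 24465. Promoters were only 39.1% of these regions, and the gap between promoters and other regions differed by library, with the NZO male at 1.31. A median over promoter regions alone was not computed, so whether a list differed from promoters in general was not tested.

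The list of beta cell identity genes leaned to negative differences. Of 20 members 19 were tested (Abcc8 and Kcnj11, the subunits of the ATP-sensitive potassium channel, share 1 promoter region), and the difference was negative at 16 and positive at 3, with a median of -0.21 (NZO -0.20, NOD -0.16) and a range of -0.62 to 0.31. The signs were 3 and 16 without the NZO male too, with a median of -0.22, and 5 and 14 without centring, where the NOD median turned to 0.12. None of the 19 had an unadjusted p under 0.05. G6pc2, a glucose-6-phosphatase of beta cells that sets the glucose threshold of secretion, had the largest negative difference, -0.62 ± 0.34, with 2.78 and 1.49 in NZO, 4.13 and 2.52 in NOD and 3.03 to 4.95 in the others. At Ins2, an insulin gene, NZO had 0.658 and 0.412, NOD 0.646 and 0.613 and the others 0.431 to 1.47, a difference of -0.54 ± 0.38 in which the AJ samples overlapped with NZO and NOD. With the deposited mean signal in place of the summit signal the Ins2 difference was 0.00.

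Several identity genes lay outside the range of the 6 others in NZO or in NOD alone. Both NZO values lay below all 6 others at the promoters of G6pc2, of Ucn3, a peptide of mature beta cells (1.41 and 0.725 against 1.46 to 2.57), of Pcsk1, a proinsulin convertase (2.03 and 1.02 against 2.35 to 3.69), and of Rfx6, a transcription factor of endocrine cells (2.61 and 2.06 against 3.49 to 4.78). In NOD both values were below the 6 at Iapp, the amyloid polypeptide gene, with 0.595 and 0.400 against 0.615 to 1.80. At Slc2a2, the glucose transporter GLUT2, the values ran from 2.66 and 3.51 in NZO to 0.899 and 1.04 in NOD, with 1.00 to 2.78 in the others. Of the 19 identity genes 4 were thus below in NZO alone and 1 in NOD alone, against 7.74% and 3.36% of all regions tested. The genes of this paragraph were picked after their values were seen, and none was called. Glp1r, the receptor for the incretin GLP-1, had a promoter peak in 0 of the 4 NZO and NOD samples and in both 129 and both AJ samples, but in neither B6 sample.

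In several other lists the positive median rested on the NZO male. The interferon and antigen presentation list, 17 of 20 members tested (Psmb9 and Tap1 share 1 promoter region), had 12 positive and 5 negative differences with a median of 0.18, and 8 and 9 with a median of -0.03 without the NZO male. At Cd274, which encodes the inhibitory ligand PD-L1, the values were 1.04 and 2.43 in NZO, 1.15 and 0.960 in NOD and 0.526 to 1.17 in the others, a difference of 0.77 ± 0.34 (limma adjusted p = 1). At Ifit3, an interferon-induced gene, they were 0.816 and 1.92 in NZO, 1.01 and 1.07 in NOD and 0.487 to 1.20 in the others. In both the NZO male was the highest of all 10 samples, and the other 3 values of its side fell among the others.

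The same held for 4 further lists. The unfolded protein response list, with all 18 members tested, went from 12 positive and 6 negative (median 0.08) to 6 and 12 (median -0.07) without the NZO male, the cell cycle list from 9 and 7 (0.00) to 6 and 10 (-0.05), the lipid and insulin signalling list from 13 and 5 (0.04) to 8 and 10 (-0.02), and the oxidative stress list from 10 and 5 (0.02) to 6 and 9 (-0.04). Their members with the largest differences were the transcription factors Atf4 (0.34 ± 0.38) and Atf3 (0.31 ± 0.34), the menin gene Men1 (0.74 ± 0.34) and E2f1 (0.46 ± 0.35), the desaturase Scd2 (0.75 ± 0.40) and the kinase Pdk4 (0.72 ± 0.39), and the antioxidant enzymes Srxn1 (0.44 ± 0.33) and Gpx1 (0.43 ± 0.41). At each of these 8 promoters the NZO male was the highest of the 10 samples, as at Pdk4 with 3.04 against 0.526 to 1.11 in the rest. Centring within bins of GC content turned the medians of the cell cycle (-0.08), lipid (-0.10) and oxidative stress lists (-0.06) negative as well.

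Genes that beta cells normally keep silent, or express when immature, were largely without a common peak: 6 of 14 were tested. The difference was positive at 5 of them, with a median of 0.44, and at 4 with a median of 0.09 without the NZO male, where the median of NZO went from 0.58 to -0.02. Lactate dehydrogenase Ldha had 0.487 and 1.73 in NZO, 0.608 and 0.693 in NOD and 0.372 to 0.925 in the others, and hexokinase Hk1 had 1.21 and 4.00, 1.39 and 1.00, and 0.765 to 1.66. Outside the NZO male these values overlapped. Aldh1a3, a marker of dedifferentiated beta cells picked after its values were seen, had a promoter peak in both NZO samples (0.382 and 0.765), in neither NOD sample and in 1 of the 6 others, the B6 male (0.423). Neither Gast nor Fev had one in any sample.

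Of 19 genes at loci of autoimmune diabetes in NOD, 10 were tested, and Il2, Il21, Ctla4, Icos and Cd101, which act in lymphocytes or other leukocytes, had no promoter region in any of the 10 samples. The median difference was 0.23 with 9 positive and 1 negative, and in NOD alone 0.16. Without the NZO male it was 0.08 with 7 positive and 3 negative, and the median of NZO went from 0.35 to -0.05. At Ifih1, the sensor of viral RNA MDA5, named here after its values were seen, both NOD values were above all 6 others, with 8.09 and 7.69 in NOD, 5.07 and 5.27 in NZO and 4.81 to 6.22 in the others. Vav3, a guanine exchange factor, had 2.20 and 2.15 in NOD, 2.14 and 1.67 in NZO and 0.846 to 2.06 in the others, at 0.55 ± 0.36. At H2-Eb1, an MHC class II gene, the difference of 0.63 ± 0.42 came from the NZO male (2.69), and NOD had 0.671 and 0.907 within the range of the others, 0.471 to 1.32.

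Of 17 genes at mouse loci of type 2 diabetes and obesity, 11 were tested, with 7 positive and 4 negative differences and a median of 0.08. Without the NZO male the median was 0.04, and with centring within bins of GC content it turned to -0.07, with 5 positive and 6 negative. Sorcs1, a sorting receptor linked to diabetes in mouse crosses, had 1.70 and 2.00 in NZO, 2.59 and 2.13 in NOD and 2.40 and 2.49 in AJ, but 0.744 to 1.16 in 129 and B6, so AJ went with NZO and NOD there. At Kti12 the difference was 0.36 ± 0.35. Lefty1, a TGF-beta family antagonist, had no promoter peak in NZO or AJ, 0.443 and 0.600 in NOD, 1.09 and 0.688 in 129 and 0.795 and 0.397 in B6. Lefty1 and Zfp69 were picked after their values were seen, and are given without a test. At Zfp69, a zinc-finger gene, the NZO values of 3.11 and 3.37 were next to 2.06 to 3.13 in 129, AJ and B6 and 2.89 and 2.35 in NOD.

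Inside the bodies of list genes, regions that separated the sides included the 2 in Syt7 given above. In an intron of Cdk6, a kinase of the G1 phase, chr5:3509159-3509799 had 0.868 and 0.980 in NZO and 0.633 and 1.20 in NOD against 0.176 to 0.603 (1.13 ± 0.35). The promoter side of Ttc39a differed by 0.54 ± 0.32 and an intron of Nnt, a mitochondrial transhydrogenase, by -0.50 ± 0.32. None was called. The granule and exocytosis list as a whole, 17 of 19 members tested, had 10 positive and 7 negative differences and a median of 0.05, which was 0.00 without the NZO male and -0.04, with 6 positive and 11 negative, with centring within bins of GC content.

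**Figure D4:**
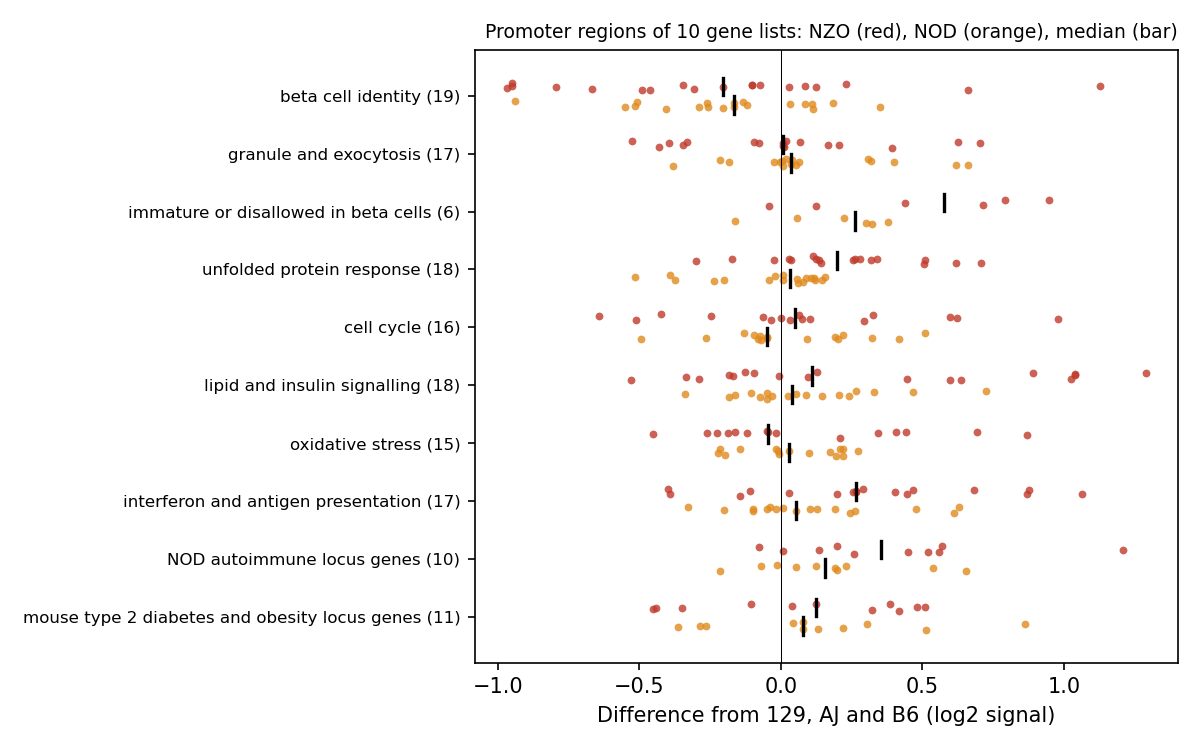
Difference from 129, AJ and B6 in log2 signal at the promoter regions of 10 gene lists, 1 point per gene for NZO (red) and for NOD (orange), with the list's median as a bar and the number of genes tested in brackets. The medians of beta cell identity genes lay at -0.20 and -0.16, and those of genes silent in beta cells at 0.58 and 0.26, the former at -0.02 without the NZO male.

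For sequence content, 10 short motifs were searched on both strands of the 200 bases around each summit, and no searched word contains another. They were FOXA (TGTTTAC), homeodomain (TAATTA), NEUROD1 (CAGATGG), MAF (TGCTGAC), RFX (GTTGCCA), AP-1 (TGANTCA), CRE (TGACGTCA), SPI1 (GAGGAAGT), IRF (GAAACTGAA) and CTCF (AGGGGGC). A match is a description of letters in the B6 reference and not evidence of binding. In the 319 regions lower in NZO and NOD the RFX word was found in 11.0% of windows, against 5.10% of all windows and 3.66% of those higher, and the FOXA word in 9.40% against 6.57% and 6.28%. With NOD alone below, the RFX word stood at 8.75%, but with NZO alone below at 5.18%. RFX and FOXA factors both act in endocrine cells of the islet. In the 191 higher regions the MAF word stood at 8.38% (6.90% of the lower and 5.28% of all) and the SPI1 word, of a leukocyte factor, at 4.19% (8 windows; 1.41% of all). With NZO alone above, the SPI1 word stood at 3.02%, and with NOD alone above at 1.57%. The homeodomain word (7.33% and 6.58% against 5.96%), NEUROD1 (6.81% and 7.21% against 7.73%) and IRF (0% and 0.627% against 0.469%) were near the share of all regions, and CTCF was at 6.81% and 3.45% against 6.92%. The CRE word was in 0% of the higher and 0.627% of the lower windows, against 1.27% of all.

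AP-1 is a factor induced by stress and growth signals. The share of its word differed between the regions of NZO alone and of NOD alone more than between the 2 shared sets. This word was found in 12.8% of all windows, in 8.38% of the 191 and in 8.46% of the 319. In the regions with NZO alone above, however, it stood at 28.6%, and with NZO alone below at 5.35%. NOD alone showed the opposite, with 4.99% above and 16.6% below. Outside promoters the 4 shares were 30.5%, 6.11%, 6.26% and 18.4%, against 15.7% of all such windows.

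The AP-1 share moved with single libraries of the other strains as well. Where a sample was the highest of the 10, the share was 18.4% and 18.1% for the NZO female and male and 3.81% and 6.48% for NOD. It was 24.8% for the AJ female but 4.84% for the AJ male, and 32.2% for the B6 male but 7.03% for the B6 female, while both 129 samples were low (4.75% and 4.49%). The female and male of AJ and of B6 thus differed more in this share than NZO and NOD did. Where a sample was the lowest of the 10, the share was 18.0% and 13.4% in NOD and higher in 129, at 24.6% and 32.6%. It was 5.81% and 8.88% in NZO. The part of AP-1 in the strain differences was not tested.

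**Figure D5:**
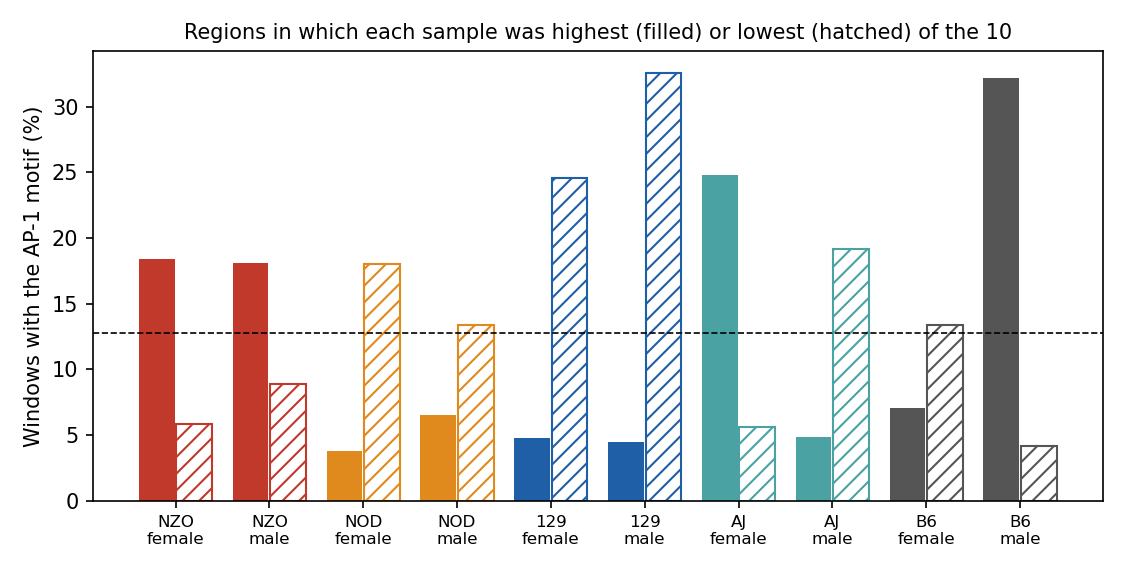
Share of 200-base windows with the AP-1 motif, in percent, among the regions in which each of the 10 samples had the highest (filled bar) or the lowest (hatched bar) centred signal; the dashed line is the 12.8% of all regions tested. NZO has high filled bars (18.4% and 18.1%). Hatched bars are 18.0% and 13.4% in NOD, near the line in its male, and highest in 129, at 24.6% and 32.6%. The bars of AJ and B6 reverse between female and male.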

How the data were processed

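The authors trimmed ATAC-seq reads with cutadapt 2.0, aligned those of every strain to mm10 with Bowtie2 2.3.4.1, removed duplicates with Picard 2.9.2 and called peaks in each sample with MOSAiCS (FDR 0.05). Whether read ends were shifted for the transposase, and the depth per sample, are not given in the sources used here. The deposited lists give each peak's signal at its summit, its mean signal and a −log10 p; the signal at the summit is in whole numbers, and scaling to depth is stated for a later step of the study but not for these lists, so each sample was centred on its median. No intervals from counting error could be given. The study's count-based test needs reads that peak lists do not hold.

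Peaks of 10 lists on chromosomes 1 to 19 were merged where they overlapped. Log2(summit signal + 1) was fitted with limma 3.58.1 in R 4.3.3: on the 5 strain means (2 against 3 strains, 3 residual degrees of freedom), and by strain and sex on the 10 samples (4 residual degrees of freedom) for NZO, NOD and their difference. p-values thus measure the spread between these strains or samples. Both fits were run on simulated data, to check the size of recovered differences and the rate of small p without a difference. In the simulation with spread between strains, the spread between the female and male of a strain was set below that of the real samples. The strain and sex fit had to pass these checks only in a simulation without spread between strains. Recovered differences were counted for both fits, but no limit was set for that count, and power is not reported here. Python 3.11.15, numpy 2.4.6, pandas 2.3.3, scipy 1.17.1 and matplotlib 3.10.9 did the rest. Genes are from GENCODE M21 on GRCm38 (mm10). A promoter lies within 3 kb of a start site, and a listed gene's promoter region overlaps a start site or lies within 1 kb.

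The comparison, gene lists, motifs and tests were chosen with earlier results of these data known. Named were 8 regions in each direction (the called one, then those with the smallest limma p among regions separating the sides), the 5 strongest one-sided presence regions each way, 3 regions per direction called in NZO or NOD and between them, list genes whose promoter separated the sides or else the 2 with the largest difference, and the 5 windows of 1 Mb with most separated regions. Tandem repeats (period 5 to 100 bases, 80% self-match), the 3 multicopy areas, the removal of 1 of these areas and the refits of gene lists were chosen after seeing the data. Results at a few list and marker genes are not reported here.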

Additional observations from a re-analysis of the deposited data

Results flagged for a closer look

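The groups of samples examined pooled strains and included named regions chosen from these data. The rate of 1 group in 20 that chance gives for Dixon's ratio thus does not apply to them. In 6 of 54 such groups, 1 sample lay far from the others by this ratio. In 4 of the 6 it was the NZO male among the NZO and NOD samples: its mean r with the 9 other samples was 0.767 (nearest 0.878), its summed acinar marker signal 3.75 (nearest 2.27), its summed leukocyte marker signal 6.31 (nearest 0.855) and its scaled signal at the Tmed6 promoter 1.47 (nearest 0.709). Among 129, AJ and B6, the 129 female had a summed endothelial marker signal of 5.72 (nearest 7.75). The 129 male had a scaled signal of 3.00 at Gm5456 (nearest 2.25), which lies in a multicopy area. The part of these libraries in the strain differences was not tested, beyond the values without each of them.

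NZO and NOD differed from each other at 227 regions by limma. NZO lay above and NOD below all 6 other samples at 99 regions, and the reverse held at 355. That these 2 counts differ was not tested. Among the named regions, NZO minus NOD in log2 signal was 4.13 at Gm5444, 3.24 at Gm43743, 3.18 at Gm11222, 2.85 at Gm48085, 3.57 at Ank3 and 2.53 at Tmem243. It was -3.39 at AC102354.1, -3.23 at Gm15901, -2.68 at Sos1, -3.06 at Gm14410, -2.92 at Gm14403 and -2.45 at Gm14326.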

How the results depend on the processing

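Counts of calls depended on the processing, and which step moves them was not tested further. The shared difference, called at 1 region, was called at 73 against the spread between sexes, 4 without centring and 2 with the mean signal. It was called at 0 after quantile normalization, centring in GC bins, with regions of at least 7 samples or with the more significant peaks of each list. The unadjusted p was under 0.05 there at 837, 1020, 1051 and 457 regions, each a smaller share than 0.05. The region near Srbd1 kept its direction, with limma adjusted p of 0.228, 0.158 and 0.473 in the first 3 of these, and was not tested in the last. Calls for NZO (48), NOD (179) and NZO minus NOD (227) were 361, 285 and 616 with a trend in limma, 276, 270 and 704 without the sex term, 4, 67 and 76 without centring, 258, 285 and 718 with GC bins, 140, 276 and 524 with a pseudocount of 10, 624, 536 and 818 with regions of at least 7 samples, and 25, 96 and 107 with the more significant peaks. The mean signal gave 125 for NZO and 87 for NOD. Separated regions (510) were 859 with at least 7 samples and 321 with the more significant peaks, and one-sided presence (246) was 86 with the latter and 165 without the chromosome 14 area.

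Leaving out a library or strain gave 0 to 7 shared calls, 0 to 12168 for NZO, 0 to 465 for NOD, 0 to 12263 for NZO minus NOD, 633 to 5952 separated regions, 281 to 4242 presence regions, -0.0325 to 0.0111 for similarity and 1736.75 to 19120.8 for peak number, which was 4651.25 by the more significant peaks. The similarity difference turned to 0.0111 without the NZO female and to 0.00414 without the 129 female.

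Of 1850 alternative values at 73 named regions, 1798 kept direction and side of the threshold, 34 passed it, 7 lost it and 11 changed sign. Only the region near Srbd1 was called at the outset, and all 7 losses were its own. Elsewhere keeping the side meant staying uncalled. In regions chosen as separating the sides, leaving out a library or strain cannot change the sign. The count of 1798 thus does not measure how stable the differences are. With the mean signal the shared difference at Gm14403 turned to -0.0571, Tdrd12 to 0.0474 and Ins2 to 0.00493. The others arose without the strain that carries the difference. Over all libraries and strains left out, the shared difference ran from -0.683 to 3.45 at Gm5444, -0.117 to 3.12 at Gm43743, -0.483 to 2.70 at Gm11222, -3.01 to 0.381 at AC102354.1, -3.01 to 0.225 at Gm15901, -2.50 to 0.178 at Sos1 and -0.0156 to 0.868 at Gpx1, in each case with the changed sign without NZO, and from -2.68 to 0.891 at Ank3, without NZO and without NOD. No paired analysis was possible because the labels give no replicate numbers; sex, shared by all strains, entered as a term. Depth per sample is not in the lists and limits what a missing peak means.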
